A study of Mus musculus with 6 samples.

Results

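The genes described here are Mcl1 and 5 genes whose products set how long the MCL-1 protein lasts: the ubiquitin ligase genes Huwe1, Fbxw7, Btrc and Trim17 and the deubiquitinase gene Usp9x. They are taken by symbol, by a rule that uses no measured value but was drawn up with earlier results of these data known, and make up 6 of the 32285 genes in the feature list of each library. The data are single-cell RNA counts of dorsal skin from male wildtype FVB mice aged 55 to 57 days, taken before hair removal by shaving and waxing (0 h), 4 or 16 h after it, or 2, 4 or 6 d after it. Each time point is 1 library, in which cells of 2 mice, dissociated separately by enzymes, were mixed at equal cell numbers. All mice carried the same genotype, and no treatment other than hair removal separates the libraries. Because a time point has 1 library, a difference between 2 time points has no replicate check, and counting intervals given with single values cover counting error only, not the spread between mice.

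MCL-1 belongs to the BCL-2 family and holds back cell death at the mitochondrial surface by binding the effectors BAX and BAK and the BH3-only proteins that switch them on. It is a short-lived protein: ligases attach ubiquitin to it and the proteasome degrades it, whereas a deubiquitinase that removes the chains prolongs its life. The ligase HUWE1 (also called MULE) binds MCL-1 through a BH3 domain, FBXW7 and βTrCP (the product of Btrc) are substrate receptors of SCF ligases that read phosphorylated sites, TRIM17 is a RING ligase, and USP9X removes ubiquitin. All of this happens on the protein, and the counts described here are of RNA.

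In GENCODE vM21 (mouse build GRCm38, also named mm10), Mcl1 (ENSMUSG00000038612) lies at chr3:95658788-95663176 on the plus strand and overlaps no other annotated gene. Huwe1 (ENSMUSG00000025261) occupies chrX:151800807-151935417 and hosts 3 microRNA genes on its own strand, and Usp9x (ENSMUSG00000031010) occupies chrX:13071498-13173328 with no overlapping gene. Fbxw7 (ENSMUSG00000028086) is at chr3:84815268-84979198 and Btrc (ENSMUSG00000025217) at chr19:45363734-45530013, each sharing ground with predicted genes. Trim17 (ENSMUSG00000036964), at chr11:58954685-58973098, overlaps 4 other genes, 2 of them on its own strand. All 6 are on the plus strand, and each value below is a gene total that does not tell exons, introns or isoforms apart.

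After filtering, 50502 cells of 61031 deposited barcodes remained. The deposited libraries held 72634390 to 112370376 unique molecular identifiers (UMIs, each standing for 1 captured RNA molecule), and the cells kept had a median of 6032 to 10528 UMIs by library. Between 0.0879 and 0.465% of the barcodes of the smaller library recurred in another library. Over all cells Mcl1 gave 128513 UMIs in 37888 cells, Huwe1 55481 in 28830, Usp9x 34806 in 22002, Fbxw7 26233 in 17152 and Btrc 2341 in 2243. Trim17 gave 13 UMIs in 13 cells. The first 4 genes could therefore be followed in single libraries of most cell types, Btrc only in the larger ones, and Trim17 in none.

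Cells were clustered without the members, and clusters were named only from marker genes, except for part of the upper hair follicle described below. The names stand for outer bulge-like (OB), hair germ-like, basal and suprabasal upper hair follicle-like (uHF.B, uHF.SB), basal and suprabasal interfollicular epidermis-like (IFE.B, IFE.SB), sebaceous gland-like (SG), T cell-like, Langerhans-like (the dendritic cell of the epidermis) and melanocyte-like cells, beside companion layer, inner bulge, hair matrix, inner root sheath and dermal papilla or fibroblast-like cells. The name OB covers the outer bulge clusters and a further bulge cluster led by Fgf18 and Sncg (941 cells). Not all of its cells need be stem cells. The follicle cluster led by Col23a1 and Ntrk2 and that led by Krt1 and Krt10 matched no type by their markers. Apart from those left unassigned, their cells kept the uHF.B or uHF.SB name from the clustering of all skin cells. Such cells were a large part of both types, so every comparison with uHF.B or uHF.SB rests on names carried over. The markers were higher in their own type than elsewhere in every library except Dcn and Lum in dermal papilla or fibroblast-like cells, Avpr1a in IFE.B, Pinlyp in the companion layer, Cdh3 and Lgr5 in hair germ, Krt17 and Plet1 in uHF.B and Klk10 in uHF.SB. Of the 15 types, 9 held at least 20 cells in all 6 libraries, and 72 sums of a type and a library were large enough to use. Levels are in CPM, the UMIs of the gene per 1000000 UMIs of the summed cells.

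Mcl1 was highest in Langerhans-like cells, the antigen-presenting cells of the epidermis. Its level there was 1907 CPM at 0 h, then 1283, 932.9, 728.8, 605.9 and 884.3 in the 5 later libraries in the order of time. In melanocyte-like cells, the pigment cells, it was 718.8, 904.9, 580.4, 331.9, 246.1 and 261.1 CPM in the same order. Both types carried a higher Mcl1 level than OB in every library, and Langerhans-like cells lay above melanocyte-like cells in 6 of 6.

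Of the keratinocyte types measured in all 6 libraries, IFE.B had the highest mean, with Mcl1 at 503.6, 354.4, 325, 392.3, 405.1 and 281 CPM from 0 h to 6 d. Inner bulge, measured in 4 libraries, held 423.8, 349.3, 248.9 and 450.4 CPM at 0 h, 4 h, 16 h and 6 d, a mean of 368.1 against 366 for IFE.B over the same libraries. IFE.SB held 346.9, 288.4, 262.2, 280.9, 284.6 and 197.8 CPM, below IFE.B in every library. In OB the values were 333.3, 287.3, 206.3, 219.3, 158.3 and 205.1 CPM. The ranges of OB, hair germ and both layers of the upper follicle over the libraries overlapped, but their order within a library changed. At 0 h uHF.B was above OB (429.8 against 333.3 CPM), and at 6 d below it (153.5 against 205.1). SG, where cells fill with lipid and then burst, had the lowest level of any type seen in 5 libraries, at 182.4, 91.96, 108.4, 80.36 and 86.19 CPM from 4 h to 6 d (only 13 SG cells were found at 0 h). T cell-like cells were the steadiest, at 268.2, 287.4, 259.7, 212.6, 226.9 and 241.4 CPM.

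**Figure D1:**
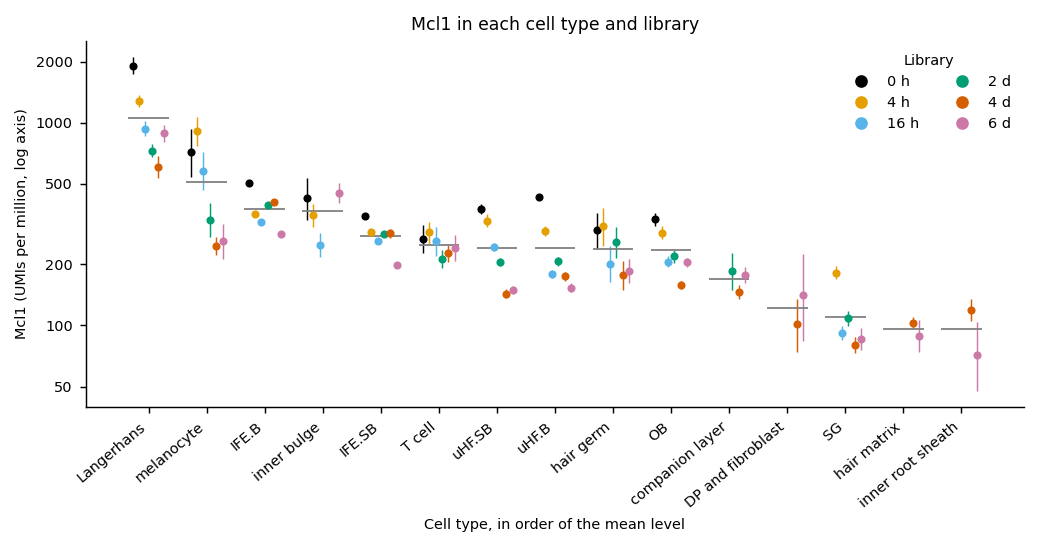
Mcl1 level in CPM (log axis) by cell type; each point is the summed cells of 1 library, its bar the 95% Poisson interval of the count, and the grey line the mean over libraries. The Langerhans-like points lie between 605.9 and 1907 CPM, whereas SG lies between 80.36 and 182.4.

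By the mean over libraries (± SD), the order ran from Langerhans-like (1057 ± 475, n = 6) through melanocyte-like (507.2 ± 271.2, n = 6), IFE.B (376.9 ± 76.79, n = 6), inner bulge (368.1 ± 90.25, n = 4), IFE.SB (276.8 ± 48.13, n = 6), T cell-like (249.4 ± 27.67, n = 6), uHF.SB (240.7 ± 94.39, n = 6), uHF.B (239.7 ± 105.2, n = 6), hair germ (237.7 ± 57.2, n = 6) and OB (234.9 ± 63.63, n = 6) to the companion layer (169.9 ± 20.96, n = 3) and SG (109.9 ± 41.88, n = 5). Dermal papilla or fibroblast-like cells (121.8), hair matrix (96.03) and inner root sheath (95.62) were measured in 2 libraries each. The 14 pairs of neighbours in this order were compared by an exact paired sign-flip test, in which none could pass after adjustment over the 14, since 6 pairs of libraries allow no p under 0.03125. The step from Langerhans-like to melanocyte-like cells gave that exact p (two-sided), which adjusts to 0.4375. From IFE.SB down to OB the means differed by less than the SD of any of these types except T cell-like.

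The share of cells with at least 1 Mcl1 UMI follows depth, so each cell was thinned to 2000 UMIs and shallower cells were left out. At that depth 67.35 to 100% of Langerhans-like cells per library held an Mcl1 UMI (42 of 802 cells too shallow; 84.94 to 97.62% before thinning). The thinned share was 36.21 to 82.76% in melanocyte-like cells (156 of 577 too shallow), 39.93 to 58% in IFE.B, 27.12 to 43.14% in OB and 13.73 to 33.19% in SG. SG shows what thinning removes, since its unthinned share was 47.44 to 88.75% with median depths between 7906 and 21534 UMIs, and that of T cell-like cells was 35.16 to 48.13% with median depths between 2020 and 2702. T cell-like cells at the common depth reached 31.75 to 46.12%, with 1001 of 2716 cells too shallow. No cell type is known to lack Mcl1, so no type gave a share from free RNA alone, and these shares are of cells with a UMI, not of cells expressing the gene.

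Over time, Mcl1 was highest in the skin taken at 0 h in 6 of the 9 types measured throughout, at 4 h in T cell-like, hair germ and melanocyte-like cells, and lower at 6 d than at 0 h in 9 of 9. Across all genes tested in a type, 13.1 to 22.1% had their highest value at 0 h, and the share lower at 6 d than at 0 h was not measured. The ratio of 0 h to 6 d was 2.8 in uHF.B (95% counting interval 2.63 to 2.98), 2.75 in melanocyte-like cells (1.95 to 3.85), 2.5 in uHF.SB (2.32 to 2.69) and 2.16 in Langerhans-like cells (1.88 to 2.47). In these types 7.13, 14.6, 12.1 and 10.7% of all genes tested were at least 2-fold higher at 0 h than at 6 d. The ratio was 1.79 in IFE.B (1.73 to 1.86), 1.75 in IFE.SB (1.69 to 1.82), 1.62 in OB (1.49 to 1.77) and 1.58 in hair germ (1.24 to 2.02). Only in T cell-like cells did its interval include equality, at 1.11 (0.892 to 1.38).

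**Figure D2:**
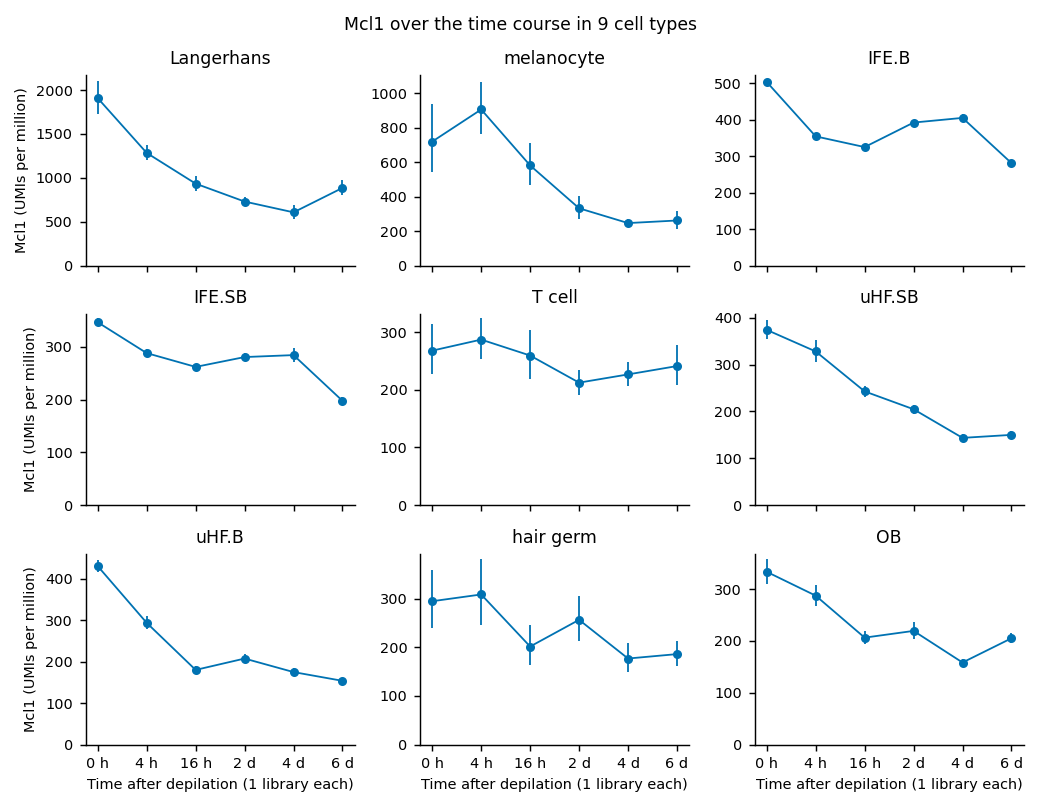
Mcl1 level in CPM (vertical axis) at the 6 time points (horizontal axis) in the 9 cell types measured throughout, 1 panel a type; points are single libraries and bars are exact 95% Poisson intervals. In uHF.B the level runs from 429.8 CPM at 0 h to 153.5 at 6 d, whereas T cell-like cells stay between 212.6 and 287.4.

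The cell make-up of OB moved over the same libraries. A cluster led by Krt24 and Cd34 gave 265 of the 405 OB cells at 0 h, a cluster led by Scrg1 and Sfrp1 gave 1544 of 1925 at 4 d, and a cluster led by Cpa4 and Krt8 gave 248 of 611 at 4 h. The Scrg1 and Cpa4 clusters took the outer bulge name with 1 and 0 of its markers among their 10 leading genes. At the doubled clustering resolution a cluster with 906 cells at 4 d, led by Slc7a2 and Nsg1, was named hair germ. Within the Krt24 cluster Mcl1 was 322.5 CPM at 0 h and 165 at 6 d, and within the Scrg1 cluster it was 278.1 and 188.5. The 0 h value was thus the higher in both clusters. In the Cpa4 cluster, absent at 0 h, Mcl1 was 271.7 CPM at 4 h, 171.9 at 16 h and 454.6 at 6 d.

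Immediate early and heat-shock genes, which enzymatic dissociation is known to induce, also differed between libraries. Their summed level (14 genes, none at 0) in OB was 37286 CPM at 0 h and 16216, 15863, 9093, 12131 and 19421 at the later times, and in IFE.B it was 28815, 15197, 16296, 14626, 25822 and 17943. Langerhans-like cells held 15126, 15184, 16762, 11244, 12858 and 7605 CPM, with the highest sum at 16 h and the highest Mcl1 at 0 h. Melanocyte-like cells held 10586, 21068, 20596, 4517, 4436 and 7478 CPM, with both the sum and Mcl1 highest at 4 h. The sum was highest at 0 h also in uHF.B, uHF.SB and hair germ, at 4 d in IFE.SB and at 16 h in T cell-like cells. The part of these genes in the Mcl1 levels was not tested.

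A smooth course over the 6 libraries (a spline with 3 degrees of freedom, which leaves 2 for the spread) was tested for every gene by edgeR's quasi-likelihood F test with Benjamini-Hochberg adjustment. No member was called in any of the 9 types, where DESeq2's likelihood ratio test also called 0. Of all genes edgeR called 0.00882% in OB, 0.0155% in hair germ, 0% in uHF.B, uHF.SB and IFE.B, 0.00804% in IFE.SB, 0.0642% in T cell-like cells, 0.082% in Langerhans-like cells and 2.14% in melanocyte-like cells. DESeq2 called 18 (Langerhans-like cells) to 491 genes (OB) by type. By the edgeR F test, Mcl1 was the only member with an unadjusted p under 0.05, in melanocyte-like cells (adjusted p = 0.158, p before adjustment 0.0085), and it passed when time was entered as log2 hours (adjusted p = 0.012) or as rank (adjusted p = 0.0313). For Mcl1 in uHF.B the unadjusted p of the edgeR F test was 0.122 and in Langerhans-like cells 0.0675. Of the 14 immediate early and heat-shock genes, edgeR called 4 over time in melanocyte-like cells, beside 2.14% of all genes, and none in the other types.

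Huwe1 encodes the very large HECT ligase that ubiquitinates MCL-1 and, across the types, its means kept within 88.49 (Langerhans-like cells) and 151.8 CPM (hair matrix). In OB it was 87.7 CPM at 0 h and 164.4, 123.1, 132.4, 136.3 and 129.9 at the later times, a ratio of 0 h to 4 h of 0.534 (95% counting interval 0.449 to 0.632). IFE.B held 129.9, 140.7, 109.7, 118.4, 106.1 and 124.4 CPM and Langerhans-like cells 113.8, 95.07, 83.83, 91.22, 58.4 and 88.62. OB alone was higher at 6 d than at 0 h, with a ratio of 0 h to 6 d of 0.675 (0.576 to 0.788). The other 8 types had a lower value at 6 d. Among them the interval of this ratio excluded equality only in IFE.SB (1.02 to 1.13), uHF.B (1.17 to 1.38) and uHF.SB (1.17 to 1.45). Thinned to equal depth, 13.72% of OB cells held a Huwe1 UMI at 0 h and 28.32% at 4 h.

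Usp9x, the deubiquitinase gene that opposes the ligases, was highest in T cell-like cells, at 168.3, 134, 127.2, 121.4, 99.1 and 129.5 CPM (mean 129.9 ± 22.45 SD, n = 6). IFE.SB was lowest of the types, at 60.19, 62.49, 82.59, 72.02, 65.55 and 58.19 CPM. In uHF.B the 4 h library stood apart from the rest, with 41.88 CPM against 95.4 at 0 h and 78.25 to 82.11 from 16 h on. The ratio of 0 h to 4 h was 2.28 there (95% counting interval 1.93 to 2.69), 1.5 in uHF.SB (1.22 to 1.85) and 1.48 in IFE.B (1.39 to 1.58). The lowest Usp9x value fell at 4 h also in uHF.SB, IFE.B, OB, hair germ, inner bulge, SG and melanocyte-like cells, but not in IFE.SB, T cell-like or Langerhans-like cells. The share of all genes lowest at 4 h was not measured, so a trait of that library cannot be told apart from one of Usp9x. Thinned shares of uHF.B cells with a Usp9x UMI ran from 8.226% at 4 h to 17.31% at 0 h.

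Fbxw7, the F-box receptor that recognises phosphorylated MCL-1, was high in T cell-like cells and IFE.B and low in SG. T cell-like cells held 131.5, 155.6, 130.7, 129.8, 101.7 and 93.05 CPM, and IFE.B held 90.12, 124.5, 91.23, 83.39, 92.57 and 101.4. SG held 29.22, 22.99, 20.28, 17.11 and 22.65 CPM from 4 h to 6 d, below every library of IFE.B. OB lay between, at 35.98, 42.89, 28.44, 34.93, 40.92 and 69.88 CPM, with the highest value at 6 d. The ratio of 0 h to 6 d in OB was 0.515 (95% counting interval 0.402 to 0.652), and at 6 d Fbxw7 was 59.94 CPM in the Krt24 cluster, 69.2 in the Scrg1 cluster and 129.5 in the Cpa4 cluster of OB. Its highest value fell at 4 h in 7 of 9 types, on 13 UMIs in melanocyte-like cells and 14 in hair germ. The same library held the highest value of Huwe1 in 5 types, Mcl1 in 3, Usp9x in 1 and Btrc in 0. The share of all genes highest at 4 h was not measured, so a trait of that library cannot be told apart from one of Fbxw7. Within T cell-like cells, the larger cluster, led by Cd3g and Trdc, held 100 to 163.1 CPM of Fbxw7, and the smaller, led by Icos, Ltb and Il17a, held 20.95 to 108.3 from 4 h to 6 d. The lowest of these, at 16 h, was 1 UMI in 20 cells (95% counting interval 0.5303 to 116.7 CPM).

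Btrc, which encodes the SCF receptor βTrCP, was low throughout. The T cell-like sums gave 12.27, 20.45, 20.92, 12.86, 14.08 and 6.287 CPM, OB gave 13.04, 3.965, 8.511, 9.721, 8.675 and 9.478, and IFE.SB gave 2.908, 1.843, 2.649, 2.621, 3.224 and 2.102. IFE.SB lay below T cell-like cells in every library. Pooled over libraries, Btrc was 22.55 CPM in dermal papilla or fibroblast-like cells (95% counting interval 13.14 to 36.11), 14.1 in T cell-like cells (11.37 to 17.29) and 2.508 in IFE.SB (2.23 to 2.811). Within IFE.SB it was 3.507 CPM in the larger cluster and 1.118 in the granular cluster led by Lce1 genes.

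Trim17 was at the edge of detection, at 0.02845 CPM over all cells (95% counting interval 0.01515 to 0.04865). Its 13 UMIs fell in OB (4), IFE.B (3), IFE.SB (3) and 1 each in T cell-like, companion layer and hair matrix cells. In uHF.B a count of 0 allows up to 0.06379 CPM, in SG 0.1226, in Langerhans-like cells 0.8679 and in melanocyte-like cells 1.104. Trim17 passed the filter on low counts in no comparison, so every count of members below is out of 5 at most.

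**Figure D3:**
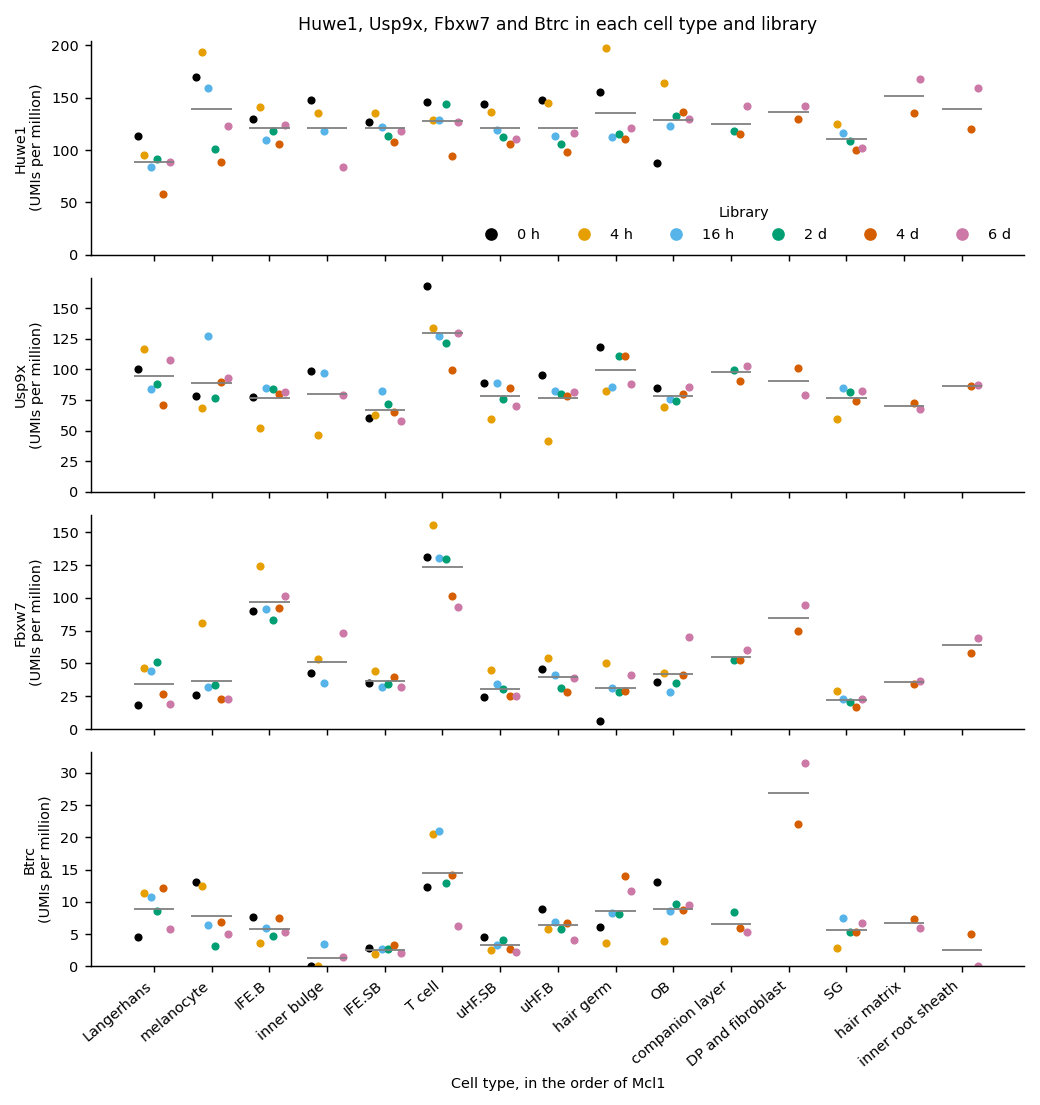
Levels of Huwe1, Usp9x, Fbxw7 and Btrc in CPM by cell type, 1 panel a gene; points are single libraries and the grey line is the mean over libraries. Fbxw7 in T cell-like cells (93.05 to 155.6 CPM) and IFE.B (83.39 to 124.5) lies above its values in SG (17.11 to 29.22).

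Pairs of cell types were compared with edgeR on the sums, with the library as a block because both sums of a library share its mice and time. The clusters compared were made from these cells, so a p describes clusters of these libraries. Differences are log2 after TMM scaling, which moved the median of all genes by 0.191, 0.296, 0.162, 0.197, −0.187, −0.017, 0.138 and −0.192 in the 8 pairs in the order in which they follow, so each sentence also gives the value without scaling where the call depends on it.

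Between the upper follicle basal layer and OB no member of 5 passed (edgeR, 0 at unadjusted p under 0.05, and 0 by DESeq2), where 29.6% of all genes did. Those genes split into 1802 higher and 1938 lower in uHF.B, or 1091 and 2859 without scaling. Mcl1 averaged 239.7 CPM in uHF.B and 234.9 in OB, with a difference of 0.16 ± 0.116 (SE) that turned to −0.03 without scaling.

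In IFE.B against OB, where 38% of genes were called (2549 higher and 2551 lower, or 1444 and 3993 without scaling), 2 members were higher. Fbxw7 rose by 1.54 ± 0.147 (adjusted p = 6.16e-05) and Mcl1 by 0.99 ± 0.166 (adjusted p = 0.00167), both in 6 of 6 libraries. Without scaling these were 1.25 and 0.70 and still passed. Btrc passed as lower without scaling alone (−0.59, adjusted p = 0.0248), and Usp9x passed only when the 4 h library was left out (0.33, adjusted p = 0.0477).

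The suprabasal layers hold the keratinocytes that have left the basal layer to differentiate. In IFE.SB against IFE.B, 4 members of 5 were called, beside 64.3% of all genes (4049 higher and 4603 lower, or 2905 and 6322 without scaling). Fbxw7 (−1.22 ± 0.071, adjusted p = 8.99e-07), Btrc (−0.96 ± 0.113, adjusted p = 6.66e-05) and Mcl1 (−0.24 ± 0.057, adjusted p = 0.00446) were each lower, in 6 of 6 libraries. Without scaling Mcl1 was at −0.44 (adjusted p = 0.000106), and without the library as a block its call was lost (−0.25, adjusted p = 0.287). Huwe1 was called higher (0.19 ± 0.061, adjusted p = 0.0225) although its CPM was higher in only 2 of 6 libraries. Without scaling the Huwe1 difference was −0.01 (adjusted p = 0.905), and the call was also lost without the 16 h (0.15, adjusted p = 0.193), 4 d (0.19, adjusted p = 0.122) or 6 d library (0.18, adjusted p = 0.0641). Usp9x differed by 0.01 (adjusted p = 0.917).

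In uHF.SB against uHF.B 1 member passed, beside 59.5% of genes (3512 higher and 3774 lower, or 2601 and 4943 without scaling). Btrc was lower in 6 of 6 libraries (−0.80 ± 0.161, adjusted p = 0.0012). Fbxw7, at −0.21, did not pass (adjusted p = 0.132) but did without scaling (−0.36, adjusted p = 0.0154), and its CPM was lower in 6 of 6 libraries. Mcl1 did not pass (0.16, adjusted p = 0.133). Leaving out the 0 h library brought calls of Usp9x (0.24, adjusted p = 0.0278) and Huwe1 (0.19, adjusted p = 0.0485), and leaving out the 4 h library a call of Huwe1 (0.22, adjusted p = 0.0227).

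**Figure D4:**
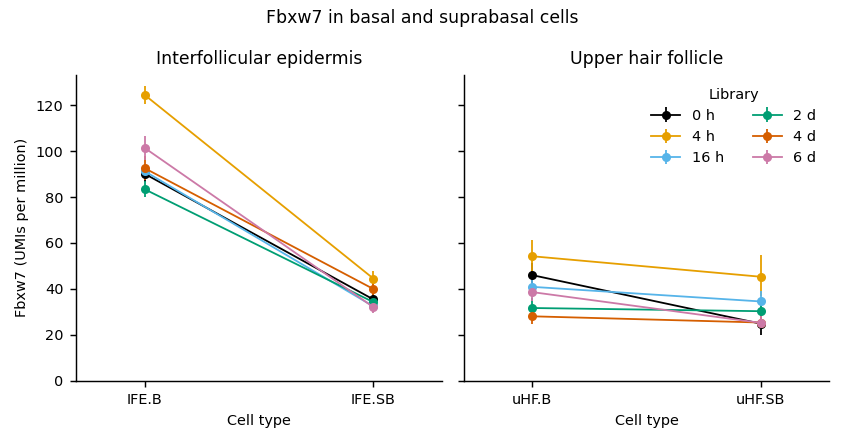
Fbxw7 level in CPM in the basal and suprabasal layers of the interfollicular epidermis and of the upper hair follicle, by library, with 95% counting intervals. Every IFE.B value (83.39 to 124.5 CPM) lies above every IFE.SB value (32.04 to 44.49). The ranges of uHF.B (28.01 to 54.2) and uHF.SB (24.79 to 45.26) overlap, but within a library uHF.SB is the lower in 6 of 6.

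Whether the suprabasal step differed between epidermis and upper follicle was tested as an interaction, a comparison added after the values were seen. Fbxw7 was the 1 member of 5 called, beside 10.2% of genes: its step was the lower in the epidermis, with a difference of −0.99 ± 0.165 on the log2 scale (adjusted p = 0.000629). Mcl1 (−0.40 ± 0.206, adjusted p = 0.24), Usp9x (−0.17, adjusted p = 0.463), Btrc (−0.14, adjusted p = 0.741) and Huwe1 (0.03, adjusted p = 0.899; −0.02 without scaling) did not pass. Within IFE.SB, Fbxw7 was at 27.99 to 47.99 CPM in the larger cluster and 31.14 to 42.76 in the granular cluster, both under IFE.B.

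In SG against IFE.B, over the 5 libraries with enough SG cells, 3 members were lower, beside 55% of genes called (3278 higher and 3557 lower, or 4214 and 2742 without scaling). Fbxw7 was at −2.33 ± 0.112 (adjusted p = 8.43e-07) and Mcl1 at −1.92 ± 0.191 (adjusted p = 5.5e-05), each in 5 of 5 libraries. Huwe1, at −0.30 ± 0.105 (adjusted p = 0.0387), lost its call without scaling (−0.11, adjusted p = 0.368) and without the 2 d (−0.26, adjusted p = 0.145), 4 d (−0.30, adjusted p = 0.103) or 6 d library (−0.24, adjusted p = 0.148).

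Against OB, T cell-like cells had 2 members higher, where 61.2% of genes were called: Fbxw7 by 1.56 ± 0.212 (adjusted p = 2.87e-05) and Usp9x by 0.69 ± 0.159 (adjusted p = 0.00212), both in 6 of 6 libraries. Btrc (0.68, adjusted p = 0.0721) passed when the 0 h (0.85, adjusted p = 0.0431) or the 6 d library (0.85, adjusted p = 0.0428) was left out. Mcl1 did not pass (0.10, adjusted p = 0.661).

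Langerhans-like cells had Mcl1 alone called against OB, where 54% of genes were: it was higher by 2.23 ± 0.146 (adjusted p = 5.53e-09), in 6 of 6 libraries. Huwe1 did not pass (adjusted p = 0.0622) but did as lower without scaling (−0.56, adjusted p = 0.022) and without the 0 h library (−0.62, adjusted p = 0.008). Melanocyte-like cells likewise had Mcl1 alone called, beside 31.1% of genes (1513 higher and 2061 lower, or 1937 and 1647 without scaling), at 0.67 ± 0.204 (adjusted p = 0.015) and 0.97 without scaling. That call was lost without the 16 h library (0.59, adjusted p = 0.0597), without the block (0.75, adjusted p = 0.121) and at a doubled clustering resolution (0.52, adjusted p = 0.0778). Without the 4 h library, Fbxw7 was also called there, as lower (−0.79, adjusted p = 0.0445).

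**Figure D5:**
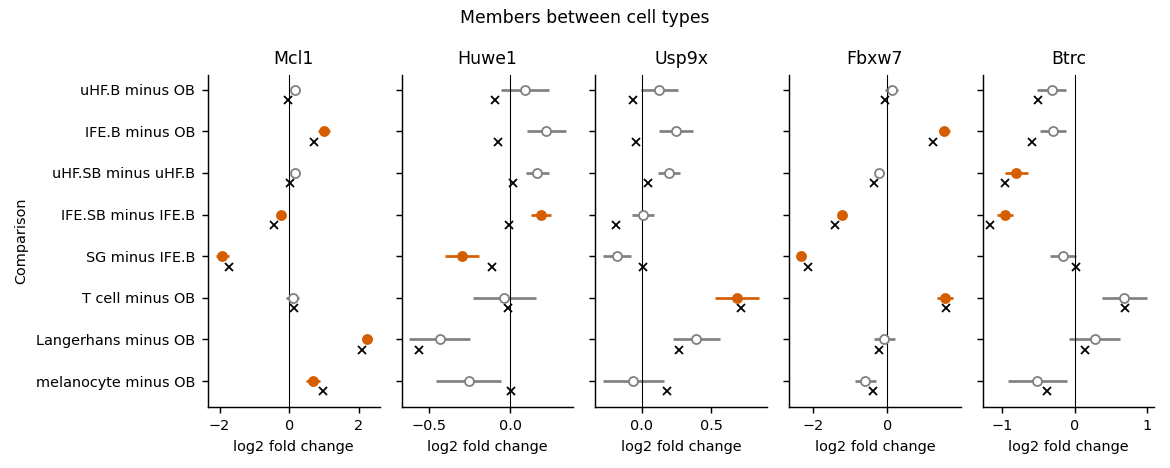
Log2 difference of each tested member in the 8 pairs of cell types, 1 panel a gene with its own horizontal axis and the pairs as rows; circles are TMM-scaled values with the SE as bars, filled orange where called, and crosses are values without scaling. Mcl1 in Langerhans-like cells against OB (2.23) and Fbxw7 in SG against IFE.B (−2.33) are the values farthest from 0.

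Cells carrying at least 2 UMIs of 10 cycling markers after thinning were called cycling, which cuts a range rather than a type. OB had 1421 such cells of 5326, from 6.234% at 0 h and 3.009% at 4 h to 47.44% at 4 d. uHF.B had 2095 of 5898 and IFE.B 3973 of 16633. Cells close to the cut were many, with 424 OB cells exactly at it and 1198 a single UMI below it.

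In uHF.B, Mcl1 was lower in cycling cells, at 406.4, 330.1, 166.7, 185.7, 146.7 and 140.4 CPM against 438.3, 289.3, 192.8, 224.2, 200.9 and 166.4 in the others. It was the only member called of 5 (−0.32 ± 0.065, adjusted p = 0.000448, and −0.20 without scaling, adjusted p = 0.0244), lower in 5 of 6 libraries, beside 32.2% of genes (1489 higher and 2146 lower, or 2254 and 1195 without scaling). In IFE.B 2 members were called, beside 43.5% of genes (2098 higher and 3141 lower, or 3187 and 1768 without scaling), and neither call held without scaling. Mcl1 averaged 357.9 CPM in cycling and 386.8 in other cells (−0.22 ± 0.047, adjusted p = 0.00092, and −0.10 without scaling, adjusted p = 0.0981), lower in 4 of 6 libraries, and Fbxw7 was at −0.19 ± 0.053 (adjusted p = 0.00737, and −0.07 without scaling, adjusted p = 0.319).

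In OB no member of 5 passed by edgeR, with 1 (Mcl1) at an unadjusted p under 0.05, where 19.5% of genes passed (963 higher and 1174 lower, or 1323 and 849 without scaling). DESeq2 was not run on cycling cells. Mcl1 averaged 216.9 CPM in cycling and 244.9 in other OB cells (adjusted p = 0.0605), and it passed without the 0 h library (−0.42, adjusted p = 0.0201) or with at least 4 marker UMIs (−0.63, adjusted p = 0.00391). Dissociation-induced genes were called lower in cycling cells for 11 of 14 in OB, 8 in uHF.B and 6 in IFE.B, beside 19.5, 32.2 and 43.5% of all genes called. Their medians were −0.504, −0.213 and −0.0924, against −0.0539, −0.0758 and −0.0732 over all genes, so in IFE.B the list lay close to all genes. The part of these genes in the Mcl1 difference was not tested.

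Other genes that act on MCL-1 were described by lists. Of 6 other ubiquitin enzymes, which include the ligase gene March5, the F-box gene Fbxo4 and the deubiquitinase gene Josd1, 3 were called in SG against IFE.B, where 55% of all genes were, and all 3 were higher: Fbxo4 by 0.85, Josd1 by 0.70 and March5 by 0.50. The ligases among them thus lay opposite to Fbxw7 in the same pair. In IFE.SB against IFE.B, where 64.3% of all genes were called, 1 was higher (Fbxw11 at 0.32, a call lost without scaling, adjusted p = 0.21) and 3 were lower. These were Cdc20, a mitotic activator of the APC/C, at −3.22, Fbxo4 at −0.60 and Josd1 at −0.35, the last lost without the block (adjusted p = 0.171). Josd1 was higher in T cell-like cells than in OB (1.84, mean 121.8 against 31.83 CPM) and lower in melanocyte-like cells (−1.23). In the other 6 pairs 5 of this list were tested. Against OB, 1 was called in uHF.B and in IFE.B, beside 29.6 and 38% of all genes. In T cell-like cells 3 were called, beside 61.2%, and in Langerhans-like and melanocyte-like cells 2, beside 54 and 31.1%. In uHF.SB against uHF.B 3 were called, beside 59.5%.

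Among the 3 SCF core genes, which carry the F-box receptors FBXW7 and βTrCP, Skp1a was lower than in OB in T cell-like (−0.95), Langerhans-like (−1.70) and melanocyte-like cells (−1.23). It was higher in IFE.SB than in IFE.B (0.41, lost without the block, adjusted p = 0.0871). In uHF.B against OB both Skp1a (−0.35) and Cul1 (−0.40) were called, but the Skp1a call was lost without any 1 library other than 6 d (adjusted p = 0.0546 to 0.137) and the Cul1 call without 0 h, 4 h or 16 h (adjusted p = 0.0564 to 0.0891), and both without the block (adjusted p = 0.193 and 0.238). Of the 7 kinases whose sites FBXW7 and βTrCP read, Mapk3 (ERK1) was higher in both suprabasal layers (0.79 in the follicle, 1.24 in the epidermis), and Mapk8 (JNK1) was lower in both (−0.48 and −0.84). Without the block the follicle calls of Mapk3 (adjusted p = 0.0891) and Mapk8 (adjusted p = 0.366) were lost.

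Of the 7 pro-survival relatives of Mcl1, 3 to 6 were tested in each pair. Against OB, 1 of 3 was called in uHF.B, IFE.B and melanocyte-like cells, beside 29.6, 38 and 31.1% of all genes. In T cell-like and Langerhans-like cells it was 5 of 6 and 4 of 5, beside 61.2 and 54%. Both suprabasal steps gave 3 of 4, beside 59.5% (follicle) and 64.3% (epidermis), and SG against IFE.B gave 2 of 3, beside 55%. Bcl2 was called lower than in OB in uHF.B (−1.22), IFE.B (−1.49) and Langerhans-like cells (−3.66), where it averaged 2.114 CPM against 36.98 in OB. It was higher in T cell-like cells (2.00, mean 145 CPM) and in melanocyte-like cells (2.88, mean 363.3 CPM), in 6 of 6 libraries each. Bcl2l1, the gene of BCL-XL, was higher in both suprabasal layers (0.89 in the follicle, 1.28 in the epidermis) and in Langerhans-like cells (2.02, mean 44.11 against 11.27 CPM). Bcl2a1b averaged 339.4 CPM in Langerhans-like cells and 54 in T cell-like cells against 0.2822 in OB; the Bcl2a1 genes are near-identical copies, so the split of UMIs between them is uncertain. Melanocyte-like cells thus had both Mcl1 and Bcl2 above OB, and Langerhans-like cells had Mcl1 above it and Bcl2 below it.

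Of the 8 BH3-only genes, whose products bind pro-survival proteins, Pmaip1 encodes NOXA, the partner that favours MCL-1. It averaged 39.27 CPM in IFE.B and 7.484 in OB (2.74 on the log2 scale, adjusted p = 0.000109). In SG it averaged 2.255 CPM against 41.32 in IFE.B over the same 5 libraries (−4.41, adjusted p = 9.18e-06), in the same direction as Mcl1. Bmf (−3.33), Bik (−3.26), Bid (−1.86) and Bcl2l11 (BIM, −0.55) were lower in IFE.B than in OB, which made 5 of 7 tested called in that pair, beside 38% of all genes, with a list median of −0.55 against 0.04 over all genes. The Bcl2l11 call was lost without 16 h (adjusted p = 0.0639), 2 d (0.126), 4 d (0.0936) or 6 d (0.0626) and without the block (0.456), as was that of Bid without the block (adjusted p = 0.113). In both suprabasal layers Bcl2l11 was the 1 gene of 5 tested in the list that was called, as lower (−1.01 in the epidermis). All genes were called at 59.5% in the follicle and 64.3% in the epidermis. Without the block Bcl2l11 passed in neither (adjusted p = 0.334 in the follicle and 0.139 in the epidermis).

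All 3 effector genes were called in both suprabasal steps, beside 59.5% of all genes in the follicle and 64.3% in the epidermis, Bax at −0.69 and −0.74, Bak1 at −0.49 and −0.83 and Bok at 0.72 and 0.54 (follicle, then epidermis). Without the block the calls of Bok (adjusted p = 0.0967 in the follicle and 0.0532 in the epidermis) and of Bak1 in the follicle (adjusted p = 0.161) were lost. Bak1 was higher than in OB in uHF.B (1.44), IFE.B (1.49), Langerhans-like (1.31) and melanocyte-like cells (1.44), the last lost without the 4 d library (1.16, adjusted p = 0.117). Over time, no gene of these 6 lists passed in any type except Cdk1 in melanocyte-like cells. The 14 dissociation genes had a median of −2.09 in SG against IFE.B, −1.75 in T cell-like and −1.61 in melanocyte-like cells against OB. Of them 11, 10 and 9 were called lower, beside 55, 61.2 and 31.1% of all genes called in either direction. The SG pair thus had both Mcl1 and this list lower, and the melanocyte pair had Mcl1 higher and the list lower. The part of those genes was not tested.

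Across the 72 sums, which share 6 libraries and so are not independent, the pattern of Mcl1 on the log2(CPM + 1) scale was most like those of Lmna (Pearson r = 0.809), Spag9 (0.798), Ndrg1 (0.773), Rap1b (0.772) and Pvr (0.75), out of 8489 genes. Huwe1 was most like Vcl (0.729), Ppp2r2a (0.703) and Snhg12 (0.675), Usp9x like Atf7ip (0.768), Ubxn7 (0.762) and Ttbk2 (0.746), and Fbxw7 like Pitpnc1 (0.679), Arhgap5 (0.678) and Arpc2 (0.661). Btrc and Trim17 were too low for this measure. Between members, r ran only from −0.116 (Mcl1 and Huwe1) to 0.205 (Huwe1 and Fbxw7), so no member was among the genes most like another.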

How the data were processed

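The authors dissociated skin, captured cells on the 10x Chromium 3′ platform and aligned reads to mm10 with Cell Ranger 6.1.2 (per the submitters' processing notes), and deposited filtered matrices of UMI counts per gene and cell, not normalized. From these counts, cells with 500 to 7000 genes and at most 10% mitochondrial UMIs were kept (55177). Doublets were removed with scanpy 1.11.5's scrublet at 0.8% per 1000 barcodes (4675 cells), because its own threshold failed in 3 libraries. Cells of all libraries were integrated across libraries by anchors and clustered with Seurat 5.3.0 (R 4.3.3; 2000 variable genes, 30 components, resolution 0.2 for skin and 0.4 for follicle cells), keeping out 65 listed genes and 430 cycle-correlated genes. The rule that named upper follicle clusters, and left 78 follicle cells unassigned, was set after the clusters were seen. Under it, the other cells of follicle clusters without a marker match kept the upper follicle name from the skin clustering.

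Counts were summed per library and type (at least 20 cells, or 10 in cycling splits) and tested with edgeR 4.0.16 (quasi-likelihood, TMM, low-count filter, Benjamini-Hochberg over all genes, threshold 0.05); DESeq2 1.42.0 was an alternative. Groups were the labelled time points. The 2 mice of a library were not told apart. On simulated data, the pair test recovered 87.4% of 2-fold and 98.9% of 4-fold changes (13404 genes, IFE.B against OB) and the time test 42.7% and 94.9% (11336 genes, OB). The simulation gave every gene the same dispersion and made changes over time linear in hours, so these rates need not hold for the real counts. In the real OB time course edgeR called 0 of the 10 cycling markers, although cycling cells made up 3.009% at 4 h and 47.44% at 4 d. Poisson intervals are 95%, and a count of 0 allows 3 UMIs. Neighbours in the order of Mcl1 were compared by an exact paired sign-flip test in SciPy 1.17.1.

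The text names all members and, from each other list, up to 4 genes with the highest mean and up to 3 with the largest difference among those called. Members and lists were chosen with earlier results of these data known. The interaction and the fit without scaling were added after values were seen. Alternatives were other scalings, filters, clustering, doublet and cycling limits, time scales, DESeq2, no block, and leaving out each library. Protein sequences were not used here, and 1 gene of the list of other ubiquitin enzymes is not reported here.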

Additional observations from a re-analysis of the deposited data

Results flagged for a closer look

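The suprabasal step of Fbxw7 differed between interfollicular epidermis and upper hair follicle by −0.99 ± 0.165 (SE) on the log2 scale, a difference between groups tested by an interaction term (edgeR, adjusted p = 0.000629, 6 libraries). Every group holds 1 library per time point, so no sample could be checked against others of its group.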

How the results depend on the processing

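Depth limits Btrc and Trim17, and 1 library per time point limits every time course. The calls of Fbxw7 in 4 pairs and in the interaction, and of Mcl1 in IFE.B and Langerhans-like cells against OB and in SG against IFE.B, held under every alternative run. Without scaling factors, log2 values that did not pass turned sign: cycling IFE.B (Btrc 0.091, Usp9x 0.067, Huwe1 0.003, with 0 members called), cycling OB (Huwe1 0.07), cycling uHF.B (Fbxw7 0.009, Usp9x 0.05, Huwe1 0.062), the interaction (Huwe1 −0.02), IFE.B against OB (Usp9x −0.045, Huwe1 −0.073), IFE.SB against IFE.B (Usp9x −0.19, Huwe1 −0.009), SG against IFE.B (Btrc 0.026, Usp9x 0.01), melanocyte against OB (Usp9x 0.18, Huwe1 0.007) and uHF.B against OB (Fbxw7 −0.071, Mcl1 −0.028, Usp9x −0.064, Huwe1 −0.10). With at least 4 cycling UMIs, Btrc was 0.032 in IFE.B, Usp9x 0.08 and Huwe1 0.05 in OB (1 member called), and Fbxw7 0.038 and Usp9x 0.01 in uHF.B; DESeq2 size factors gave Huwe1 0.015 in cycling OB. Without the low-count filter Usp9x was −0.02 in IFE.SB against IFE.B. At a doubled clustering resolution Fbxw7 was −0.024 and Mcl1 −0.033 in uHF.B against OB, and Mcl1 −0.086 and Cdk1 0.33 in T cell against OB. Members called became 2 in Langerhans against OB under DESeq2 size factors, no scaling, no filter, the DESeq2 test and a doubled doublet rate, 2 in uHF.SB against uHF.B under no scaling, a doubled doublet rate and at most 6000 genes per cell, and 1 in the melanocyte time course with log2 hours or rank. Without the library as replicate block, the pairs gave 2 members in IFE.SB against IFE.B and 0 in melanocyte against OB (0 also at the doubled resolution). Of the values of called listed genes that are no members, 333 lost their call under an alternative, 1 turned sign and 2398 did neither. Averaging UMIs per 10000 over cells turned 4 neighbour steps of Mcl1, with exact p of 1 (IFE.B and inner bulge), 0.9688 (uHF.SB and uHF.B), 0.8438 (hair germ and OB) and 1 (hair matrix and inner root sheath). Leaving out each library in turn, values without a call ran from −0.096 to 0.051 (Btrc, cycling IFE.B), −0.284 to 0.012 (Btrc, cycling OB), −0.361 to 0.132 (Fbxw7, Langerhans against OB), −0.032 to 0.215 (Fbxw7), −0.056 to 0.121 (Huwe1, both uHF.B against OB), −0.132 to 0.079 (Huwe1) and −0.029 to 0.226 (Mcl1, both T cell against OB), −0.077 to 0.03 (Huwe1, cycling OB), −0.076 to 0.002 (Huwe1, cycling uHF.B), −0.018 to 0.076 (Huwe1, interaction), −0.028 to 0.048 (Usp9x, IFE.SB against IFE.B) and −0.143 to 0.039 (Usp9x, melanocyte against OB), and members called were 1 to 2 in Langerhans, 0 to 1 in cycling OB, 0 to 2 in melanocyte and 1 to 3 in uHF.SB comparisons. Counts of all genes called moved further: over the alternatives they ran from 0 to 2342 (OB), 1 to 538 (hair germ), 0 to 95 (uHF.B), 0 to 125 (uHF.SB), 0 to 19 (IFE.B), 0 to 589 (IFE.SB), 0 to 635 (T cell), 0 to 203 (Langerhans) and 0 to 404 (melanocyte) over time, from 1292 to 5049, 2680 to 5437, 2975 to 7544, 4408 to 9227, 4264 to 7623, 5396 to 7694, 3984 to 6462 and 2167 to 3853 in the 8 pairs, from 684 to 2589, 2596 to 3864 and 3803 to 5790 for cycling in OB, uHF.B and IFE.B, and from 657 to 1636 for the interaction. Beyond what the settings' construction shows, the cause was not tested.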
